A study of Mus musculus with 35 samples.

Results

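This is an account of 7 genes of myeloid C-type lectin receptors in irradiated mouse skin, Clec4d, Clec4e, Clec4n, Clec7a, Clec5a, Clec4a2 and Clec12a, each taken by its symbol from a table of 36106 genes. Each symbol stood on 1 row, so all 7 were found. The study sequenced bulk RNA of 35 pieces of skin, taken from 19 mice of the inbred strain C57BL/6J, all female and 10 weeks old. The 3 sham samples came from mice given no radiation. The other mice were irradiated on the left flank with a dose of 25 Gy, and 4 radiated and 4 control samples were deposited for each of weeks 1, 2, 3 and 4 after it. Radiated samples came from the treated site, which had been shaved, and the body site of the control samples is not stated in the labels. The number of mice leaves 1 mouse for each pair of radiated and control samples that share a week and a replicate number, so such a pair was read as 2 samples of 1 mouse, and no mouse was sampled in 2 different weeks.

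C-type lectin receptors sit on the surface of neutrophils, monocytes, macrophages and dendritic cells and bind sugars, lipids and ligands from microbes or dying cells. Clec4d (MCL), Clec4e (Mincle) and Clec4n (Dectin-2) signal through the adaptor Fcer1g, Clec5a (MDL-1) signals through Tyrobp, and Clec7a (Dectin-1, the receptor for fungal beta-glucan) carries its own activating motif. These receptors activate the kinase Syk and, through Card9, the transcription of cytokines and neutrophil-attracting chemokines. Clec4a2 (DCIR) and Clec12a (MICL) carry inhibitory motifs and recruit phosphatases such as Ptpn6.

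All 7 genes lie on chromosome 6 (GRCm38, positions from GENCODE M21). Clec4a2 (123106428 to 123143999), Clec4n (123229843 to 123247021), Clec4d (123262111 to 123275265) and Clec4e (123281789 to 123289870, minus strand) lie in this order in one lectin cluster. There is 1 protein-coding gene between Clec4a2 and Clec4n, and 6.5 kb without a protein-coding gene separates Clec4d from Clec4e. Clec12a (129342691 to 129365303) and Clec7a (129461591 to 129472779, minus strand) lie in a second cluster, with 4 protein-coding genes between them. Clec5a (40574894 to 40585821, minus strand) stands alone. The annotation types Clec7a as a polymorphic pseudogene and the other 6 as protein-coding.

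The promoters of the gene with the largest change (Clec4d), of its neighbour (Clec4e) and of the gene with the smallest change in week 4 (Clec12a) are shown because members of 1 family and chromosome moved by such different amounts. RefSeq's table of promoters (GRCm38.p6) held 6 of the 7 genes, with no entry used for Clec4n, and the 250 bases before RefSeq's start are printed 5′ to 3′ on the gene's strand. The first window lies at chr6:123261857-123262106 (plus strand), the second at chr6:123289872-123290121 (minus strand) and the third at chr6:129349994-129350243 (plus strand). The third window lies inside the GENCODE span of Clec12a given above, since RefSeq's start for that gene is further downstream, and the Clec4a2 window, not printed, also lies inside its gene's span. Capitals mark matches, on either strand, to GAGGAA (the PU.1 core), TTGCNNAA (C/EBP) or TGANTCA (AP-1).

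Clec4d: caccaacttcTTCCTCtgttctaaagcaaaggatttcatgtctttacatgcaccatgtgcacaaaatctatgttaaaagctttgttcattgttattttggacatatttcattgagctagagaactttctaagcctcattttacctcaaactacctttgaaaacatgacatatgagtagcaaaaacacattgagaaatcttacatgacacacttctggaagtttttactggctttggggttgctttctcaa
Clec4e: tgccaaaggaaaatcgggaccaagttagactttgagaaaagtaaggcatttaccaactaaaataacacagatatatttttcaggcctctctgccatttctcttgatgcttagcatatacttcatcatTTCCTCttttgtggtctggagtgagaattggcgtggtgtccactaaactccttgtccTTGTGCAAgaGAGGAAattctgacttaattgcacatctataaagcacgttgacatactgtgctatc
Clec12a: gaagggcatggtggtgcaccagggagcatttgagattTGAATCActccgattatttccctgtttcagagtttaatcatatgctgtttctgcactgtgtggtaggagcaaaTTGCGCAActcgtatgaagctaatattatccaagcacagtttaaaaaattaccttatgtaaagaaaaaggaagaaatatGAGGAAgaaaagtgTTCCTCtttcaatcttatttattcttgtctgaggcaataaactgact

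The Clec4d window held 1 match to the PU.1 core, with its first base 240 bases before the start. The Clec4e window held 2 such matches, 123 and 56 bases before the start, and 1 C/EBP match 66 bases before it. The Clec12a window held 2 PU.1 matches, 61 and 47 bases before the start, a palindromic C/EBP match 140 bases before it that reads on both strands, and 1 AP-1 match 213 bases before it. Clec5a had 2 PU.1 matches, Clec7a had 1 in each of its 2 overlapping windows, and the Clec4a2 window held none of these letters. The NF-kB motif was not found in any of the windows. Over all 32851 promoters of this length, 23.3% held the PU.1 core, 9.56% the C/EBP motif, 6.75% the AP-1 motif and 0.356% the NF-kB motif. None of the printed matches overlapped another motif, and a match is a description of letters and not a bound site.

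Levels are given as CPM, the counts of a gene in a library scaled to a common library size with TMM factors. A gene passed when its adjusted p in edgeR was under 0.05, and every log2 fold change is that of the first-named group over the second. Every share of tested genes set beside a count of genes that passed is by edgeR's adjusted p. The share by DESeq2 or by an unadjusted p is not given, so counts of those kinds have no background beside them. In bulk skin, more cells that carry a transcript and more transcript per cell cannot be told apart. The summed CPM of the 7 genes was 16.2 ± 3.41 (SD, n = 3) in sham skin and between 17.3 and 32.6 on average in control skin. The means of radiated skin in weeks 1 to 4 were 33.6 ± 6.89, 57.7 ± 21.0, 168.7 ± 82.4 and 140.7 ± 40.6 (SD, n = 4 each). In week 3 of radiated skin, replicate 1 was the highest library for 5 of the 7 genes and replicate 4 the lowest for 6.

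**Figure D1:**
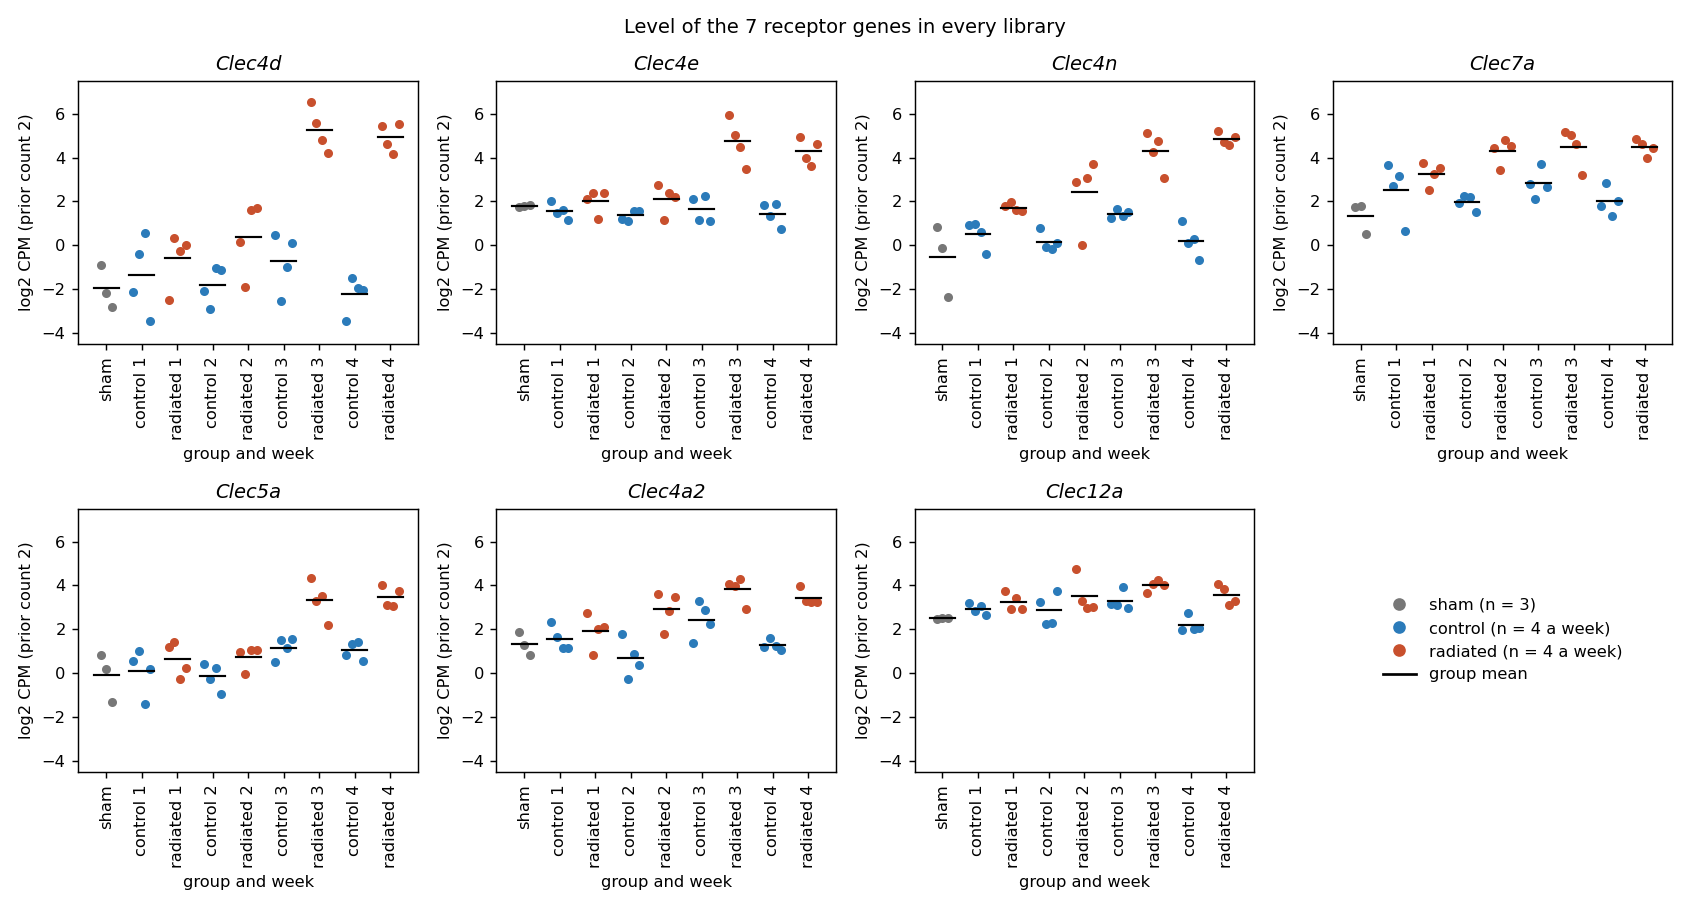
Log2 CPM (prior count 2) of each receptor gene in every library, by group and week, with the group mean as a black bar. The radiated libraries of weeks 3 and 4 stand apart from all other libraries for Clec4d, Clec4e and Clec5a, and the Clec12a groups lie closest together.

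Each week's radiated skin was set against that week's control skin, to find which receptors differed and when. In week 1, 0 of the 7 genes passed in edgeR or in DESeq2, 0% of the 17578 tested genes passed in the upward direction, and 1 of the 7 (Clec4n) had an unadjusted p under 0.05. In week 2, 0 of the 6 tested genes passed, against 0.00577% of the tested genes, while 4 had an unadjusted p under 0.05 and DESeq2 passed 3. In week 3, 6 of 7 genes were higher in radiated skin, against 13.6% of the tested genes, and in week 4 all 7 were, against 24.2%. In weeks 1, 3 and 4, when all 7 were tested, their median log2 fold change was 0.45, 2.38 and 2.52, beside 0.05, 0.08 and 0.02 for all tested genes. In week 4 Clec4d was too low in control skin to be tested against sham skin, so its test there rests on the radiated libraries in which it was high. That call adds no support by itself. Every radiated library lay above every control library for 1 of the 7 genes in week 1 (Clec4n), 1 in week 2 (Clec7a), 4 in week 3 (Clec4d, Clec4e, Clec4n and Clec5a) and 7 in week 4, and the share of tested genes with such a gap was 3.46%, 3.91%, 14.4% and 22.8%.

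**Figure D2:**
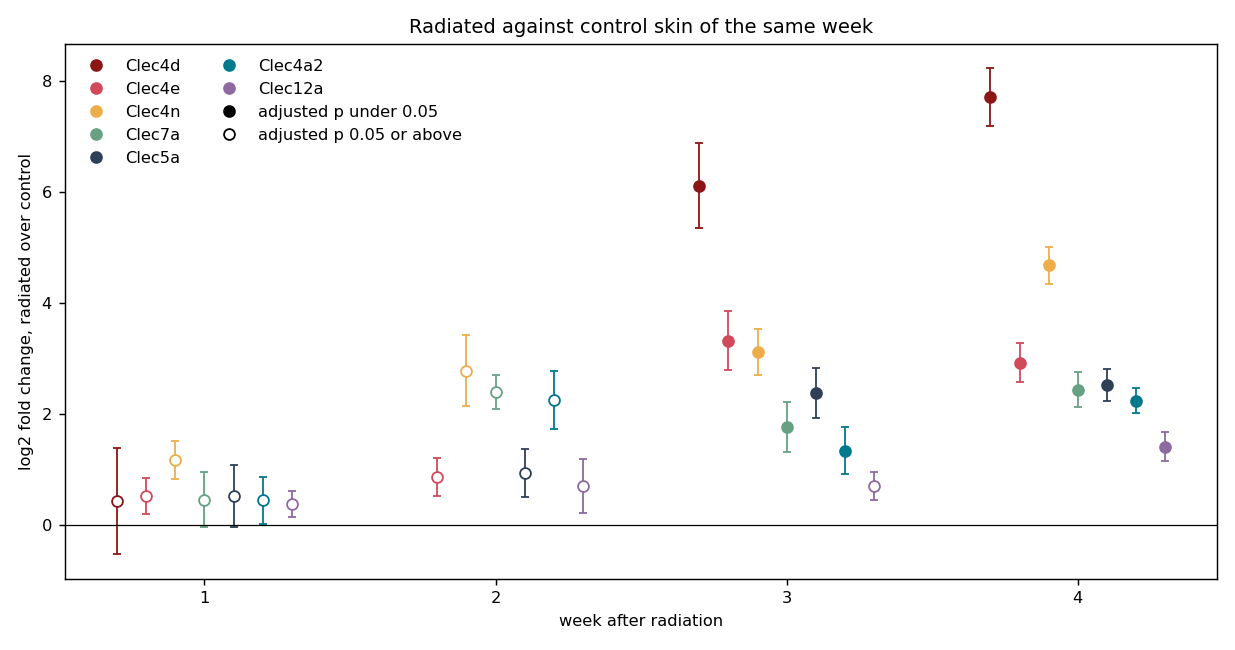
Log2 fold change of radiated over control skin by week after radiation for the 7 genes (points), with its standard error (bars). Filled points have an adjusted p under 0.05 in edgeR, which holds for 6 genes in week 3 and 7 in week 4, and Clec4d of week 2 is not drawn because it was below the count filter.

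Clec4d, a receptor for mycobacterial glycolipid that pairs with Clec4e, showed the largest change of the 7. It was scarcely measured outside radiated skin of weeks 3 and 4, with 1 to 10 counts in each of the 3 sham libraries and 0 to 29 counts in each of the 16 control libraries. In week 3 its level was 92.8, 47.4, 27.5 and 18.2 CPM in the radiated libraries and 1.30, 0.0818, 0.418 and 0.971 CPM in the control libraries. In week 4 it was 44.1, 24.4, 18.1 and 46.2 CPM in radiated libraries and 0, 0.265, 0.171 and 0.154 CPM in control libraries. All 8 of these radiated libraries lay above every other library of the study, of which the highest held 3.16 CPM. Its log2 fold change reached 6.12 in week 3 (SE 0.763, edgeR adjusted p 0.00138) and 7.72 in week 4 (SE 0.52, adjusted p 4.78e-06), a ratio of the mean CPM of 67.0 and 225. Without radiated replicate 1, the highest library, the week 3 value was 5.525. In week 2 the radiated libraries held 1.02, 0.175, 2.94 and 3.16 CPM and the control libraries 0.143, 0.0430, 0.393 and 0.365 CPM. Replicate 2 was the low radiated library and lay within the control range. Clec4d was below the filter there, and without the filter its log2 fold change was 2.93 (adjusted p 0.169 in edgeR).

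Clec4e, the receptor for mycobacterial cord factor and for the nuclear protein Sap130 released from dying cells, lay at a low level until week 3. Sham libraries held 3.27, 3.34 and 3.50 CPM, and the means of the 4 control groups lay between 2.51 and 3.27 CPM. Radiated libraries held 2.18 to 5.10 CPM in week 1 and 2.15 to 6.54 CPM in week 2. In week 3 the radiated libraries held 62.2, 32.5, 22.6 and 11.1 CPM and the control libraries 4.27, 2.17, 4.60 and 2.06 CPM. In week 4 the radiated libraries held 30.4, 15.6, 12.1 and 24.9 CPM and the control libraries 3.45, 2.43, 3.63 and 1.58 CPM. The groups did not overlap in either week. Clec4e differed by 3.32 on the log2 scale in week 3 (SE 0.531, edgeR adjusted p 0.00288) and 2.92 in week 4 (SE 0.353, adjusted p 0.000119). In weeks 1 and 2 it was 0.51 (SE 0.325) and 0.86 (SE 0.34), with adjusted p of 0.478 and 0.298.

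Clec4n, which binds fungal mannans, showed the second largest change in week 4 and the third largest in week 3. In week 3 the radiated libraries held 35.1, 19.0, 27.1 and 8.36 CPM and the control libraries 2.25, 3.03, 2.46 and 2.80 CPM. A week later the radiated libraries held 37.0, 25.8, 23.7 and 30.6 CPM and the control libraries 2.07, 0.973, 1.11 and 0.539 CPM. No library overlapped between the groups, and the log2 fold change was 3.12 in week 3 (SE 0.408, edgeR adjusted p 0.00164) and 4.68 in week 4 (SE 0.337, adjusted p 6.43e-06). Among the tested members it had the largest value in both earlier weeks, at 1.17 in week 1 (SE 0.346, edgeR adjusted p 0.232) and 2.78 in week 2 (SE 0.641, adjusted p 0.139). In week 2 the radiated libraries held 7.34, 0.932, 8.27 and 12.9 CPM against 1.66, 0.861, 0.787 and 0.991 CPM in control libraries. Replicate 2 alone lay within the control range, and without it the value was 3.14 (adjusted p 0.0123 in edgeR).

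Clec7a was the one member whose groups did not overlap in week 2. Then the radiated libraries held 21.4, 10.8, 27.5 and 23.2 CPM and the control libraries 3.71, 4.69, 4.46 and 2.82 CPM. This was a log2 fold change of 2.40 (SE 0.304) that did not pass (adjusted p 0.111 in edgeR). With the replicate number as a block, which compares the samples taken to be of 1 mouse, it was 2.35 and passed (adjusted p 0.0139). In week 3 the radiated libraries held 35.7, 32.3, 24.3 and 9.19 CPM and the control libraries 6.93, 4.296, 13.1 and 6.28 CPM, so radiated replicate 4 lay below control replicate 3. Clec7a passed with 1.76 (log2, SE 0.453, adjusted p 0.0191 in edgeR), but did not pass without control replicate 1, 2 or 4 (adjusted p 0.0542, 0.0511 and 0.0567). By week 4 the radiated libraries held 29.2, 24.4, 15.7 and 21.9 CPM, all above the control libraries at 3.39, 7.08, 2.44 and 4.01 CPM (log2 difference 2.44, SE 0.319, adjusted p 0.000191 in edgeR).

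Clec5a was at a low level in all groups up to week 2. The radiated libraries of week 2 held 1.86, 0.873, 1.99 and 1.96 CPM against 1.24, 0.732, 1.09 and 0.417 CPM in control libraries (log2 difference 0.94, SE 0.426, adjusted p 0.367 in edgeR). In week 3 the radiated libraries held 19.8, 9.80, 11.4 and 4.41 CPM and the control libraries 1.30, 2.74, 2.09 and 2.80 CPM. The radiated libraries of week 4 held 16.3, 8.61, 8.16 and 13.2 CPM and the control libraries 1.70, 2.43, 2.61 and 1.35 CPM. The groups did not overlap in these weeks, and the log2 fold change was 2.38 in week 3 (SE 0.451, edgeR adjusted p 0.00553) and 2.52 in week 4 (SE 0.296, adjusted p 9.79e-05).

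Of the members with inhibitory motifs, Clec4a2 held 12.2, 3.32, 7.05 and 10.9 CPM in radiated libraries of week 2 and 3.37, 0.732, 1.70 and 1.199 CPM in control libraries. Radiated replicate 2 lay just under control replicate 1. Clec4a2 did not pass, at 2.26 on the log2 scale (SE 0.52, adjusted p 0.139 in edgeR), and with the block it was 2.29 and passed (adjusted p 0.0118). In week 3 it held 16.8, 15.7, 19.6 and 7.49 CPM against 2.47, 9.70, 7.20 and 4.57 CPM, with radiated replicate 4 below control replicate 2. It passed with 1.34 (log2, SE 0.43, adjusted p 0.0442 in edgeR). It lost the call without radiated replicate 1, 2 or 3 (adjusted p 0.0843, 0.0833 and 0.0933) and without control replicate 1, 3 or 4 (adjusted p 0.0807, 0.0787 and 0.111). At week 4 the radiated libraries held 15.5, 9.66, 9.38 and 9.503 CPM and the control libraries 2.17, 2.92, 2.27 and 2.00 CPM, without overlap (log2 difference 2.24, SE 0.22, adjusted p 3.48e-05 in edgeR).

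Clec12a, which recognises uric acid crystals, changed least of the 7 in weeks 3 and 4. In week 3 the radiated libraries held 12.5, 16.4, 18.9 and 16.3 CPM and the control libraries 8.77, 8.55, 15.3 and 7.71 CPM, so radiated replicate 1 lay below control replicate 3. Clec12a did not pass, at 0.69 (log2, SE 0.25, adjusted p 0.0651 in edgeR). It passed with the block (0.74, adjusted p 0.0491), with total-count scaling (0.91, adjusted p 0.031), in DESeq2 (adjusted p 0.0361) and without control replicate 3 (0.95, adjusted p 0.016), and with the block all 7 genes passed in week 3, against 10.0% of tested genes. In the last week the radiated libraries held 16.6, 14.0, 8.41 and 9.55 CPM and the control libraries 3.77, 6.59, 3.98 and 4.08 CPM, without overlap (log2 difference 1.41, SE 0.266, adjusted p 0.00177 in edgeR). In weeks 1 and 2 the log2 fold change was 0.37 (SE 0.238) and 0.70 (SE 0.482), with adjusted p of 0.48 and 0.552. Radiated replicate 1 of week 2 held 27.1 CPM and the other 3 radiated libraries 7.68 to 9.78 CPM, and without replicate 1 the value was 0.06472.

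Radiated replicate 2 of week 2 was the lowest of its group for 6 of the 7 genes. Without it 3 genes passed in week 2, namely Clec4n (adjusted p 0.0123 in edgeR), Clec7a (adjusted p 0.0119) and Clec4a2 (adjusted p 0.0471). With the block and all libraries, 2 genes passed in week 2, Clec7a and Clec4a2, against 2.85% of the tested genes. That library also had the lowest summed neutrophil markers (13.6 CPM) and the lowest summed monocyte and macrophage markers (694 CPM) of its group, and their part in its low receptor levels was not tested.

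A model of all 32 libraries from irradiated mice tested whether the radiated-minus-control difference of a gene was the same in weeks 1 to 4. Clec4d (adjusted p 0.000893 in edgeR), Clec4e (adjusted p 0.00151) and Clec4n (adjusted p 0.00607) passed, 3 of the 7 genes, against 15.6% of 19338 tested genes. Without replicate 3 of every group Clec4d and Clec4n did not pass (adjusted p 0.0748 and 0.103) and Clec4e alone remained. Clec5a, Clec7a and Clec4a2 had adjusted p of 0.0534, 0.078 and 0.108, and Clec12a had 0.419. With the block Clec4a2 passed (adjusted p 0.0368), and without replicate 4 Clec7a did (adjusted p 0.0404). DESeq2 passed 6 genes, with Clec5a (adjusted p 0.0168), Clec7a (adjusted p 0.0281) and Clec4a2 (adjusted p 0.0474) among them. Whether the 3 genes that passed in edgeR differed from the other 4 was not tested.

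Step by step, Clec4e was the 1 gene to pass, from week 2 to week 3, where the radiated-minus-control difference grew by 2.45 (SE 0.594, adjusted p 0.0138 in edgeR), against 2.81% of tested genes with an upward step. It did not pass without replicate 1, 2 or 3 (adjusted p 0.067, 0.117 and 0.0663). At the same step Clec4d grew by 3.17 (SE 1.3, adjusted p 0.136 in edgeR) and Clec5a by 1.44 (SE 0.665, adjusted p 0.191), which was 0.6653 without replicate 1 and 2.118 without replicate 4. Clec7a and Clec4a2 had steps of -0.64 (SE 0.642) and -0.91 (SE 0.636), with adjusted p of 0.593 and 0.413. On leaving out each replicate in turn they ranged from -1.316 (without replicate 2) to -0.1594 and from -1.54 (without replicate 1) to -0.5329. From week 1 to 2 no gene passed upward, and 0 of the 7 did in edgeR or DESeq2, while Clec4n, Clec7a and Clec4a2, 3 genes, had an unadjusted p under 0.05 with steps of 1.61, 1.95 and 1.81. From week 3 to 4, 0 of the 7 passed in either tool, against 0.264% of tested genes, and 1 (Clec4n, step 1.58, and from 1.023 to 2.232 on leaving out a replicate) had an unadjusted p under 0.05. Fold changes of Clec7a and Clec4a2 were thus at similar values in weeks 2 and 4, and those of Clec4e and Clec5a were small in week 2 and larger in week 3, but only the Clec4e step passed a test.

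Radiated skin was also set against sham skin, with the same radiated libraries. In week 1, 0 of the 7 genes passed in edgeR, against 0.543% of tested genes, with 3 at an unadjusted p under 0.05 and 2 passing in DESeq2. The nearest was Clec7a, at 13.4, 5.63, 9.36 and 11.5 CPM in radiated libraries and 3.23, 3.39 and 1.34 CPM in sham libraries, which gave 1.90 on the log2 scale (SE 0.41, adjusted p 0.053 in edgeR). Without radiated replicate 2 it passed (2.09, adjusted p 0.029). In week 2 Clec7a alone passed, 1 of 7 against 2.16% of tested genes, at 2.97 on the log2 scale (SE 0.429, adjusted p 0.00986 in edgeR). Without radiated replicate 2, Clec4n (adjusted p 0.0456) and Clec4a2 (adjusted p 0.0381) passed as well. In weeks 3 and 4 all 7 genes passed, against 10.4% and 15.2% of tested genes. For the 6 genes other than Clec4d the values ran from 1.58 for Clec12a (SE 0.219) to 4.70 for Clec4n (SE 0.809) in week 3 and from 1.18 for Clec12a (SE 0.26) to 5.08 for Clec4n (SE 0.613) in week 4. Clec4d, with 1 to 10 counts in a sham library, was tested here through the radiated libraries in which it was high, so its calls add no support. Its fitted values were 7.78 (SE 0.875) and 7.29 (SE 0.634). Without sham replicate 1, which held 10 of those counts, they were 8.961 and 8.43, those of Clec4n 5.63 and 5.946, and that of Clec5a in week 3 was 4.135. The week 3 call of Clec5a (3.52, adjusted p 0.0121 in edgeR) was lost without sham replicate 2 (adjusted p 0.0528).

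In edgeR 0 of these receptor genes passed between control and sham skin in any week, with all 7 tested in weeks 1 and 3 and 6 in weeks 2 and 4, when Clec4d was below the filter. The share of tested genes higher in control than in sham skin was 3.28%, 1.37%, 5.18% and 1.76% in weeks 1 to 4. At an unadjusted p under 0.05 there were 1, 0, 4 and 0 of the tested receptor genes, and DESeq2 passed 0, 0, 4 and 0. The shares above are by edgeR's adjusted p and are no background for these counts. The 4 of week 3 were Clec4n, Clec7a, Clec4a2 and Clec12a, with log2 fold changes of 1.57 (SE 0.64), 1.51 (SE 0.453), 1.24 (SE 0.48) and 0.85 (SE 0.273) and adjusted p of 0.14, 0.0628, 0.123 and 0.0757 in edgeR. Without sham replicate 1, Clec4n passed there (2.45, adjusted p 0.0478). Clec4e had -0.05 (SE 0.348) in the same week. Of the 4 control groups, that of week 3 had the highest mean for all 7 genes.

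Ordered by mean CPM over the 9 groups, the highest group was radiated skin of week 3 for Clec4d, Clec4e, Clec7a, Clec4a2 and Clec12a and radiated skin of week 4 for Clec4n and Clec5a. The other of these weeks came second except for Clec12a, where radiated skin of week 2 did, at 27.1, 9.78, 7.68 and 7.96 CPM. For Clec4d, Clec4e and Clec5a the lowest library of the top pair of groups (18.1, 11.1 and 4.41 CPM) lay above the highest library of the other 7 groups (3.16, 6.54 and 2.80 CPM). For Clec4n, Clec7a, Clec4a2 and Clec12a it did not. Neighbouring groups in the order overlapped in 7 of 8 steps for Clec4d, Clec4e, Clec4n, Clec5a and Clec12a and in 8 of 8 steps for Clec7a and Clec4a2, so most of the order lies within the spread of libraries.

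The make-up of the family was compared per length, as CPM per kilobase of merged exons. In sham skin the levels ran from 1.00 ± 0.431 for Clec7a and 1.00 ± 0.0121 for Clec12a to 0.130 ± 0.129 for Clec4d (SD, n = 3), the lowest. In radiated skin of week 2 Clec7a was highest at 7.86 ± 2.69 (SD, n = 4) and Clec4d stood at 1.14 ± 0.913. In radiated skin of week 3 Clec4d was highest at 29.1 ± 20.8, followed by Clec4n at 15.8 ± 8.04 and Clec7a at 9.62 ± 4.48, and Clec12a was lowest at 2.90 ± 0.475. In week 4 Clec4d and Clec4n stood at 20.8 ± 8.80 and 20.6 ± 4.15, values that do not differ beyond their spread.

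As a share of the summed CPM per kilobase of the 7 genes, Clec4d went from 2.48% ± 1.88 (SD, n = 3) in sham skin to 38.5% ± 8.45 in radiated skin of week 3 and 31.9% ± 6.15 in week 4 (SD, n = 4 each). It lay between 1.76% and 4.64% on average in control skin and at 4.58% and 4.79% in radiated skin of weeks 1 and 2. Clec4n reached 33.3% ± 3.85 in radiated skin of week 4, against 15.8% ± 8.42 in control skin of that week. Clec7a held 39.8% ± 8.04 in radiated skin of week 2, then 13.6% ± 2.66 and 13.9% ± 2.36 in weeks 3 and 4. Clec12a went from 24.0% ± 9.06 in sham skin to 3.56% ± 0.944 in radiated skin of week 4 although its own CPM was higher there. Clec4a2 stood at 6.10% ± 1.2 in that group and at 15.4% ± 1.35 in control skin of the same week. Shares add up to 100% in a library, so a share can fall while the level of the gene rises.

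**Figure D3:**
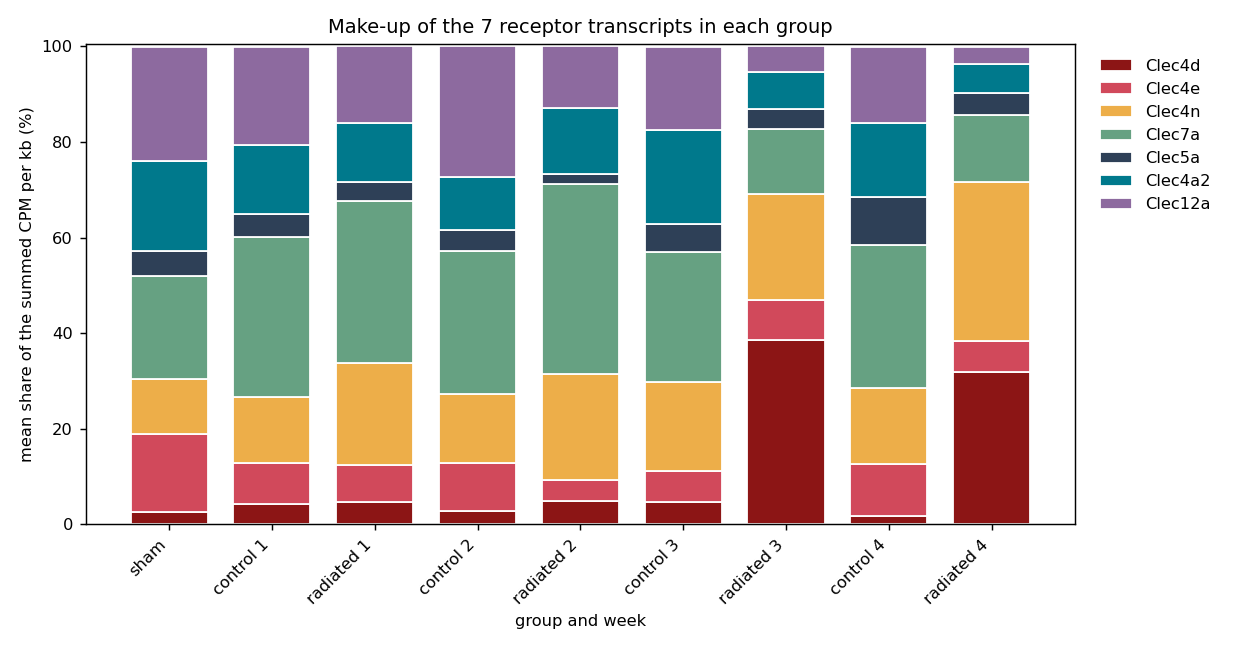
Mean share of each gene in the summed CPM per kilobase of the 7 genes, as stacked bars by group and week. Clec4d takes 38.5% and 31.9% in radiated skin of weeks 3 and 4 and under 5% in the other groups.

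Within a library, the log2 CPM of Clec4d minus that of Clec4e compares 2 genes that lie side by side. The difference averaged -3.76 ± 1.02 in sham skin (SD, n = 3) and between -3.68 and -2.39 in control skin. In radiated skin it was -2.62 ± 1.39, -1.73 ± 1.29, 0.53 ± 0.178 and 0.66 ± 0.159 in weeks 1 to 4 (SD, n = 4 each). In weeks 3 and 4 it lay between 0.285 and 0.89 over the 8 radiated libraries, whose Clec4d levels ran from 18.1 to 92.8 CPM. In sham and control skin, where Clec4d had few counts, differences with it depend on the prior count. Clec4d minus Clec12a turned from -4.46 ± 0.987 in sham skin to 1.28 ± 1.21 and 1.39 ± 0.633 in radiated skin of weeks 3 and 4. Clec4n minus Clec4a2, an activating and an inhibitory gene of the same cluster, was -1.87 ± 1.14 in sham skin, and in week 4 it was -1.07 ± 0.738 in control and 1.42 ± 0.185 in radiated skin.

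Other lectin genes of the 2 clusters were read in the same comparison. Of 11 listed neighbours, 8 were tested in week 3, where 3 were higher and 1 lower in radiated skin, and 7 in week 4, where 4 were higher and 1 lower. The untested ones were below the count filter. In week 4 the higher ones were Clec4a3 (2.76, SE 0.284), Clec4a1 (2.63, SE 0.16), Olr1 (1.71, SE 0.302), the receptor for oxidised LDL, and Clec9a (1.04, SE 0.241), a dendritic cell receptor for dead cells. The lower one was Clec2d (-0.71, SE 0.112), a ligand of inhibitory NK cell receptors, which was outside the rule for named genes and was named after its value was seen. Clec1a (0.12, SE 0.211) and Clec1b (-0.28, SE 0.326), which lie between Clec12a and Clec7a, did not pass (adjusted p 0.664 and 0.507 in edgeR).

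**Figure D4:**
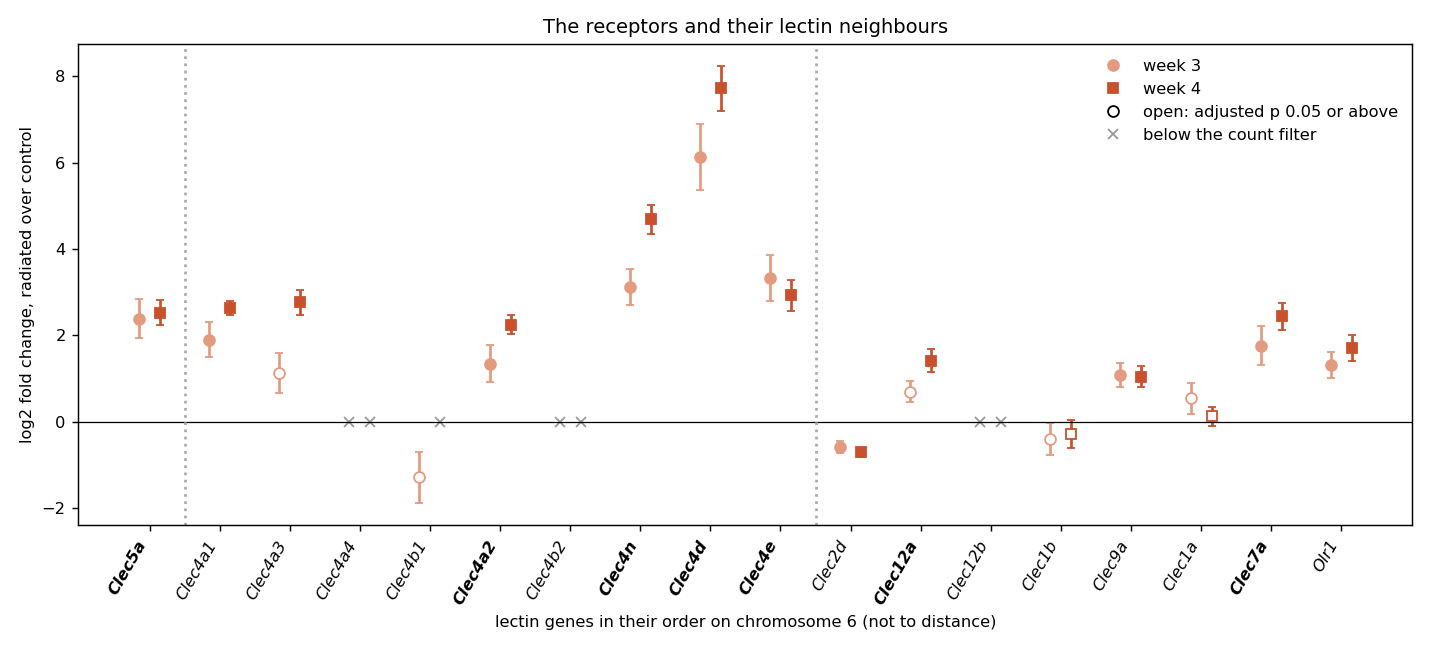
Log2 fold change of radiated over control skin in weeks 3 and 4 for the 7 receptors (bold) and their 11 lectin neighbours in chromosome order, with standard errors as bars. The largest value in both weeks is that of Clec4d in the first cluster, followed by Clec4e in week 3 and Clec4n in week 4. Dotted lines part Clec5a and the 2 clusters.

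Of 12 other lectins of macrophages, dendritic cells and Langerhans cells, 10 were tested. In radiated skin 4 were higher and 2 lower in week 3, and 6 were higher and 2 lower in week 4. With the block 2 were higher in week 3, as Mrc1 and Cd302 (adjusted p 0.0565 and 0.0895 in edgeR) did not pass. Mrc1, the macrophage mannose receptor, was at 519.6 CPM in radiated and 89.9 CPM in control skin of week 4 (log2 fold change 2.54, SE 0.189), and Cd302 had 1.91 (SE 0.218). Cd207 (langerin), the defining lectin of Langerhans cells, fell by 2.97 (SE 0.269, adjusted p 2.16e-05 in edgeR), from 4.95 CPM in control to 0.624 CPM in radiated skin. Mgl2, a galactose-binding lectin of dermal dendritic cells, fell by 2.15 in week 4 (SE 0.446, edgeR adjusted p 0.0031) and by 1.11 in week 3 (SE 0.319, adjusted p 0.0293). In week 2 Mgl2 had been higher by 2.26 without passing (SE 0.459, adjusted p 0.126 in edgeR), and with the block it passed (adjusted p 0.0276).

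The adaptors Fcer1g and Tyrobp rose in weeks 3 and 4. Their log2 fold changes in week 3 were 2.66 for Fcer1g (SE 0.694, adjusted p 0.0201 in edgeR) and 2.01 for Tyrobp (SE 0.501, adjusted p 0.0169). Hcst, at 0.954 CPM in radiated and 0.147 CPM in control skin of week 3, was tested only through the radiated libraries (2.73, SE 0.555, adjusted p 0.00734 in edgeR), which supports nothing by itself. In week 4 Fcer1g had 2.90 (SE 0.287, adjusted p 3.68e-05 in edgeR) and Tyrobp 2.90 (SE 0.184, adjusted p 3.86e-06), and Hcst, at 0.451 CPM in radiated skin, was below the filter. In week 2 the values were 1.91 for Fcer1g (adjusted p 0.139 in edgeR, with the block 0.00634) and 1.59 for Tyrobp (adjusted p 0.284, with the block 0.0902).

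Of 13 signalling genes downstream of the receptors, 9 were higher in radiated skin of week 3, and in week 4, 9 were higher and 1 lower. The medians were 1.92 and 1.47. Syk had log2 fold changes of 1.92 (SE 0.345, adjusted p 0.0045 in edgeR) and 2.30 (SE 0.118, adjusted p 1.88e-06) in weeks 3 and 4, and Card9 had 2.04 (SE 0.264, adjusted p 0.00156) and 1.48 (SE 0.213, adjusted p 0.000349). The Src-family kinases Fgr and Lyn, which start signalling at such receptors, rose by 3.86 (SE 0.194) and 2.70 (SE 0.162) in week 4, and the exchange factor Vav1 rose by 3.01 (SE 0.173). Ptpn6, the phosphatase recruited by inhibitory receptors, rose by 1.16 in week 3 (SE 0.314, edgeR adjusted p 0.0232) and by 0.60 in week 4 (SE 0.121, adjusted p 0.00264). The lower gene was Prkcd (-0.20, SE 0.0715, adjusted p 0.0424 in edgeR), named after its value was seen, and it did not pass with the block (adjusted p 0.109).

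Of 12 genes listed as targets of this signalling, 11 were tested in each of the later weeks and Il12b was below the filter. Csf3 was below the filter between control and sham skin of weeks 3 and 4, Cxcl2 and Csf2 in week 3, and Il6 and Il10 in week 4, so these were tested through the radiated libraries. Of the 12, 7 passed as higher in week 3 and 9 in week 4, counts that therefore support nothing by themselves. In week 4 Csf3, the growth factor of neutrophils, rose by 6.43 (SE 0.668), Il6 by 6.37 (SE 0.561), Cxcl2, a neutrophil chemokine, by 5.73 (SE 0.434) and Il1b by 4.69 (SE 0.41). In week 3 Cxcl2 went from 0.254 CPM in control to 66.5 CPM in radiated skin (log2 difference 8.07, SE 0.587, adjusted p 0.000506 in edgeR). Many other signals also drive these genes. Sap130, the protein ligand of Clec4e, did not pass in any week, with log2 fold changes of 0.05, 0.18, -0.08 and -0.20 and adjusted p of 0.886, 0.689, 0.716 and 0.0721 in edgeR.

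Markers of neutrophils, of monocytes and macrophages and of dendritic cells were read beside the receptors. Of 10 neutrophil markers, 7 were tested in weeks 3 and 4 and passed as higher in radiated skin. S100a9, Mmp8 and Retnlg among them, and S100a8 in week 3, were too low in control and sham skin to be tested there, so they were tested because the radiated libraries were high, and the count supports nothing by itself. The summed CPM of all 10 lay between 7.44 and 30.3 over the sham and control libraries, between 117.7 and 930.6 in radiated skin of week 3 and between 255.3 and 531.9 in week 4. Of the markers that define neutrophils and their precursors, Ly6g was at 0 in 2 of the 4 radiated libraries of week 3 and 1 of 4 in week 4, and Camp averaged 0.233 and 0.470 CPM there. Replicate 1 of radiated skin in week 3, the highest library for Clec4d and Clec4e, also had the highest summed neutrophil markers, and replicate 4 was lowest for both. The part of the neutrophil markers in the receptor levels was not tested.

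Of 12 monocyte and macrophage markers, 8 were higher in radiated skin of week 3 and 12 in week 4, with medians of 1.30 and 2.45. Their summed CPM lay between 300.5 and 1520 over the sham and control libraries and averaged 990.8 ± 333, 1286 ± 1000, 2523 ± 999 and 2175 ± 309 in radiated skin of weeks 1 to 4 (SD, n = 4 each). None of the 12 was at 0 in any of the 35 libraries. Their part in the receptor levels was not tested.

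Of 8 dendritic cell markers, 4 were higher in radiated skin of week 3 and 4 in week 4, with medians of 0.95 and 0.85 on the log2 scale. Ccr7, a chemokine receptor of migrating dendritic cells and 1 of the 4, was tested only through the radiated libraries, so its call adds no support. The summed CPM of all 8 averaged 33.1 ± 5.94 in control and 59.5 ± 13.4 in radiated skin of week 3, and 28.3 ± 2.91 and 50.2 ± 7.94 in week 4 (SD, n = 4 each). Zbtb46 and Xcr1, which mark conventional dendritic cells, did not pass in week 4 (log2 differences 0.16 and -0.22). The part of this list in the receptor levels was not tested.

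The members were set against the summed monocyte and macrophage markers of the same library on a log2 scale. Differences between members were not tested, and the ratios of Clec4e and Clec5a to these markers are not given here. The ratio of Clec4a2 averaged -7.42 ± 0.222 in control and -7.64 ± 0.343 in radiated skin of week 4, and that of Clec7a -6.69 ± 0.599 and -6.59 ± 0.472. The ratio of Clec4n averaged -8.49 ± 0.901 in control and -6.22 ± 0.278 in radiated skin (SD, n = 4 each). That of Clec4d averaged -6.13 ± 0.615 in radiated skin. No control value is given for Clec4d, since at levels of 0 to 0.265 CPM it depends on the prior count. The ratio of Clec12a was lower in radiated skin, at -7.52 ± 0.569 against -6.50 ± 0.279. Against the summed neutrophil markers the Clec4d ratio averaged -3.68 ± 0.251 in radiated skin of week 4, and the other 6 members had averages from -4.14 to -2.15 in control and from -5.19 to -3.78 in radiated skin. The Clec4n averages were -4.14 ± 0.403 and -3.78 ± 0.243.

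Other cell types moved as well. Langerhans cell markers (3 of 5 lower in week 4) had a summed CPM of 426.3 ± 90 in radiated and 663.5 ± 36.3 in control skin of week 4. Of 8 T cell markers 4 were higher and 1 lower in week 4, and 5 of 6 mast cell markers were higher. Among the lists of resident tissue, 5 of 6 fibroblast markers were higher and 4 of 6 muscle markers lower in radiated skin of week 4, and with the block 1 muscle marker was lower. Keratinocyte markers, which define the labelled tissue, summed to between 5416 and 26440 CPM in every library, and 4 of 6 were lower and 1 higher in radiated skin of week 4. Of 8 hair follicle markers, 7 were tested and passed as higher in week 4, with summed levels of all 8 from 20.44 to 5881 CPM between the radiated libraries, and with the block 4 were higher. Of 6 adipocyte markers 1 was lower in week 4, and of 5 B cell markers, which summed to 1.36 CPM in control and 2.42 CPM in radiated skin, 2 were tested and 1 was higher (Cd79b, tested only through the radiated libraries). Their part in the receptor levels was not tested.

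**Figure D5:**
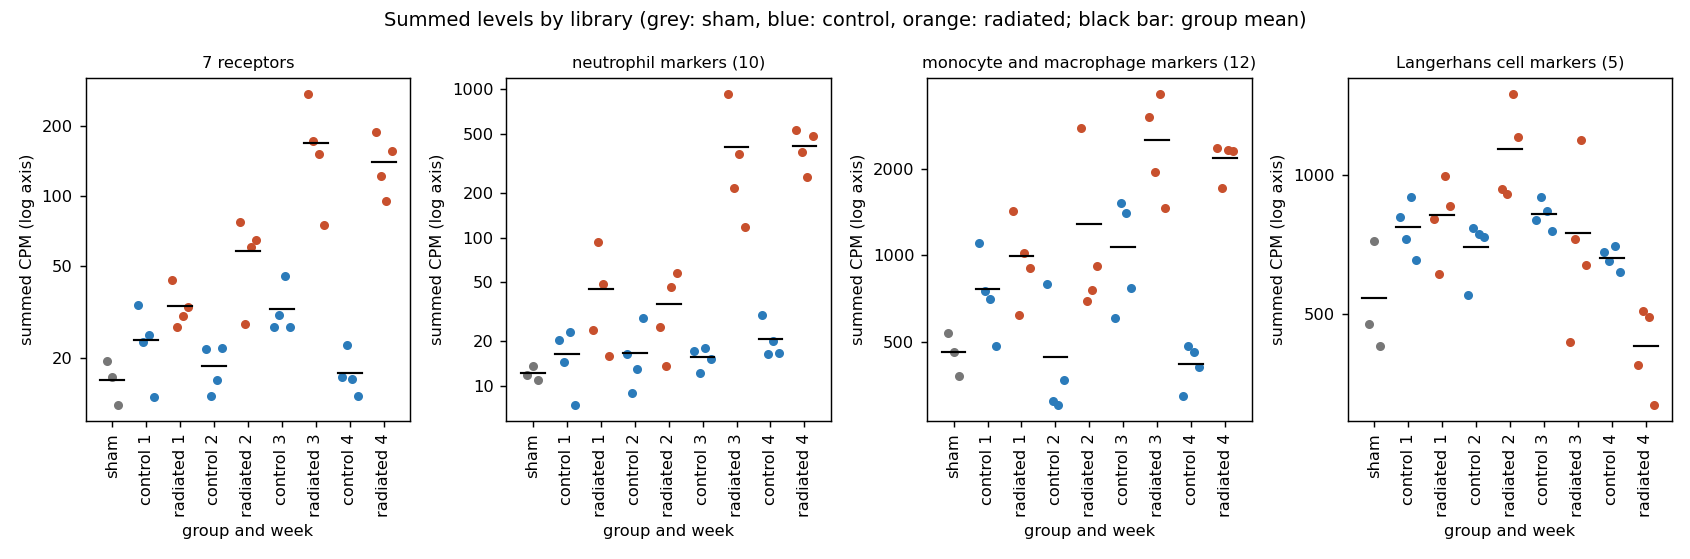
Summed CPM by library (log axis) of the 7 receptors, 10 neutrophil markers, 12 monocyte and macrophage markers and 5 Langerhans cell markers, with group means as black bars. The receptors and both sets of myeloid markers have their highest means in radiated skin of weeks 3 and 4, and the Langerhans cell markers have their lowest mean in radiated skin of week 4.

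The genes whose levels followed each member most closely were sought by the correlation of log2 CPM over the 35 libraries, among 16397 genes. These libraries share the group differences, so the correlation of deviations from the group means is given beside each, and neither is a test. For Clec4d they were Srgn (r 0.961, deviations 0.730), the core protein of secretory granules, Hdc (0.956, 0.726), which makes histamine, and Csf3r (0.952, 0.696), the receptor for the growth factor of neutrophils. For Clec4e they included Srgn (0.943, 0.718) and Slc2a3 (0.940, 0.834), a glucose transporter. For Clec4n they were the inhibitory Fc receptor Fcgr2b (0.959, 0.770), Akr1b8 (0.953, 0.791) and Ifnar2 (0.946, 0.722). For Clec4a2 they were Nfam1 (0.971, 0.926), the integrin chain Itgb2 (0.969, 0.916) and Nckap1l (0.952, 0.903), with the highest deviations of the family.

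For Clec7a the closest genes were Cd53 (0.886, 0.641), Itgax (0.882, 0.590), an integrin chain of dendritic cells and macrophages, and Ifnar2 (0.881, 0.717). For Clec5a they were Fgd3 (0.893, 0.511), Il1rl1 (0.889, 0.547), the receptor for IL-33, and Tlr6 (0.887, 0.559). The closest genes of Clec12a, at a lower r than those of the other members, included Ptprj (0.836, 0.637) and Ly86 (0.832, 0.751). Among the members themselves, Clec4d and Clec4e had an r of 0.906 (deviations 0.424), and Clec4n with Clec5a had the highest deviations, 0.635 (r 0.868). Clec5a with Clec12a had the lowest r, 0.441 (deviations -0.0740).

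The libraries held 17362853 to 28487885 counts. In the deposited table, values of Clec4d, Clec4e and Clec5a were whole numbers in all 35 libraries and those of Clec4n in 34. Values of Clec7a, Clec4a2 and Clec12a were not whole in any library and were rounded. Clec4a2 has close relatives in its cluster (Clec4a1, Clec4a3), and it overlaps Gm44132 on the same strand.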

How the data were processed

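The deposited table held estimated counts per gene, made by the authors with Trim Galore 0.6.7 and kallisto 0.46.2 on mm10, per the submitters' processing notes. Each library had 29.5% to 32.5% of its values not whole, and all were rounded. Genes passing edgeR's filterByExpr were scaled by TMM (factors 0.816 to 1.16) and tested with its quasi-likelihood F test (edgeR 4.0.16, R 4.3.3), with Benjamini-Hochberg adjustment over all tested genes and a threshold of 0.05. The standard error is the absolute log2 fold change over the square root of F. Each fit held the 2 groups compared, and the change over weeks used all 32 radiated and control libraries. Log2 CPM used a prior count of 2, and ratios to summed markers added 0.1 CPM before the logarithm.

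Alternatives were DESeq2 1.42.0, median-ratio and total-count scaling, no filter, 1 fit of 35 libraries, leaving out each replicate, and the replicate number as a block. The pairing comes from the count of mice. The correlation of deviations between same-numbered radiated and control samples averaged 0.07, 0.17, 0.053 and -0.021 in weeks 1 to 4, and -0.023, -0.057, -0.017 and 0.0079 between other numbers, over 19787 genes. No 2 libraries were identical among 595 pairs, and within groups the lowest reduced chi-square was 20.

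Named genes are the 7 members, the adaptors, Syk, Card9, Ptpn6, Sap130, up to 4 genes of each list with the largest change in week 4 among those that passed with a mean of at least 1 CPM, and the 3 genes most like each member, of which some are not reported here. Cell type markers were read by the level of the list. The members and the 18 other lists were chosen with earlier results of these data known. The labels give no batch. P-values measure the spread between these mice. Those of radiated against control skin and of the change over weeks treat paired samples as independent, except with the replicate block. The scripts were tested on simulated data.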

Additional observations from a re-analysis of the deposited data

Results flagged for a closer look

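In 5 of the 56 gene and group combinations with 4 libraries, 1 library stood far from the other 3, its gap to the nearest being above 0.829 of the group's range, where 2.8 would be flagged by chance at 1 in 20. Clec4a2 was high in replicate 1 of radiated skin in week 4 (15.49 CPM). Clec5a was low in replicate 2 of radiated skin in week 2 (0.8732 CPM). Clec12a was high in replicate 3 of control skin in week 3 (15.34 CPM), in replicate 2 of control skin in week 4 (6.592 CPM) and in replicate 1 of radiated skin in week 2 (27.1 CPM).

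The radiated-minus-control difference changed between weeks by edgeR's test for Clec4d (adjusted p 0.000893), Clec4e (adjusted p 0.00151) and Clec4n (adjusted p 0.00607). Clec4e grew by 2.453 on the log2 scale from week 2 to week 3.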

How the results depend on the processing

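The calls of all 7 genes in radiated against control skin of week 4 held in every alternative run. That of Clec4d was tested through the radiated libraries in which it was high, so it adds no support. Counts of genes that passed moved as follows, and the cause was not tested. Radiated against sham skin of week 1 went from 0 to 2 in DESeq2 and to 1 with total-count scaling, with no filter and in 1 fit of 35 libraries (0 to 1 when each replicate was left out). Radiated against control skin of week 2 went from 0 to 3 in DESeq2, 1 with no filter, 2 with the replicate block and 3 in 1 fit of 35 libraries (0 to 3 on leaving out replicates). Radiated against sham skin of week 2 went from 1 to 5 in DESeq2 and in 1 fit of 35 libraries (1 to 3 on leaving out). Radiated against control skin of week 3 went from 6 to 7 in DESeq2, with total-count scaling and with the replicate block (4 to 6 on leaving out, with 4 without control replicate 1 or 4), and radiated against sham skin of week 3 from 7 to 6 without sham replicate 2. Control against sham skin of week 3 went from 0 to 4 in DESeq2 (0 to 1 on leaving out). The change over weeks went from 3 to 6 in DESeq2 (1 to 4 on leaving out), and the step from week 2 to 3 ranged from 0 to 1 on leaving out. Values that changed sign did not pass in any setting. Control against sham skin ranged on leaving out from -0.081 to 0.6082 (Clec4a2) and -0.2455 to 0.7412 (Clec5a) in week 1, -0.2101 to 1.188 (Clec4n) and -0.6281 to 0.364 (Clec5a) in week 2, -0.2558 to 0.1114 (Clec4e) in week 3, and -0.1038 to 1.274 (Clec4n) and -0.3251 to 0.2278 (Clec4a2) in week 4. With the replicate block, whose numbers join different mice here, Clec5a of week 2 was 0.1758, Clec4e of week 3 0.04674 and Clec4a2 of week 4 0.01191. Steps ranged from -0.09624 to 0.6783 (Clec4e) and -0.118 to 0.8654 (Clec12a) for weeks 1 to 2 and -0.3388 to 1.071 (Clec4n) for weeks 2 to 3. The Clec12a step from week 2 to 3 was 0.1297 with total-count scaling and 0.08776 with the replicate block (-0.6774 to 0.5584 on leaving out), and the Clec5a step from week 3 to 4 was -0.001712 with total-count scaling (-0.4225 to 0.4977 on leaving out). Total-count scaling moved the median of all genes by up to 0.236 (radiated against control, week 3). With a prior count of 0.5 the genes most like each member were unchanged, except that Lilr4b replaced Csf3r for Clec4d.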
